A study of Homo sapiens with 21 samples.

Results

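Anaplastic lymphoma kinase (ALK), its relative leukocyte receptor tyrosine kinase (LTK) and their ligands FAM150A and FAM150B, also called ALKAL1 and ALKAL2, were described here by the accessibility of their chromatin in SK-N-BE(2) cells, a human neuroblastoma line. The members are the open chromatin sites of the consensus ATAC-Seq set whose nearest annotated gene is 1 of these 4 genes, and they were 110 of the 367900 sites of the series. ALK held 76 of them, FAM150A 30, FAM150B 3 and LTK 1. The genome build was GRCh38. Because the set is defined by the nearest transcription start site (TSS), 89 further sites that lie inside ALK carry the name of another gene, and these are described separately.

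ATAC-Seq counts the DNA fragments that the Tn5 transposase inserts into, so that a higher count marks more open chromatin. Cells were transduced with lentiviral supernatants carrying short hairpin RNAs (shRNAs) and collected 72 h later. The series holds 7 groups of 3 libraries: a non-silencing Control, shARID1A.2 and shARID1A.4 against ARID1A, shARID1B.2 and shARID1B.3 against ARID1B, and the combinations shARID1A/B.2.3 and shARID1A/B.4.2 against both genes. ARID1A and ARID1B are alternative subunits of the BAF chromatin remodelling complex, and the combinations target both. All groups, Control included, were transduced cells of the same line, and the labels do not say whether the 3 libraries of a group came from separate transductions, so p-values measure only the spread between these libraries.

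ALK and LTK are receptor tyrosine kinases of the insulin receptor superfamily. The small secreted ligands ALKAL1 and ALKAL2 bind the extracellular part of both, and the activated kinases signal through the RAS-MAPK, PI3K and JAK-STAT routes. ALK is expressed in the developing sympathetic nervous system, from which neuroblastoma arises, and activating ALK mutations are found in familial and sporadic neuroblastoma. In the mouse and zebrafish the ligands act on ALK and LTK family receptors in neural crest derivatives.

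The sequences that carry the findings at ALK are shown before the values. ALK lies on the minus strand of chromosome 2, so that bases before its start have higher coordinates. For 5 sites the middle 300 bases are given on the plus strand, and for the promoter the 250 bases before the RefSeq start are given on the minus strand, all from GRCh38. Capitals mark letters that match a motif on either strand. For AP-1 the letters were TGANTCA. For GATA factors they were AGATAA or the related TGATAA. For E-box factors of the neural lineage they were CAGATG. For MYC they were CACGTG. For TEAD factors they were GGAATG. For homeobox factors they were TAATTA. The 4 intergenic and intronic sites below the promoter were chosen because they hold the largest losses, the strongest site and the site on which the combinations diverged, and the fifth, in intron 11, has the largest loss inside the gene.
ALK promoter, chr2:29921587-29921836: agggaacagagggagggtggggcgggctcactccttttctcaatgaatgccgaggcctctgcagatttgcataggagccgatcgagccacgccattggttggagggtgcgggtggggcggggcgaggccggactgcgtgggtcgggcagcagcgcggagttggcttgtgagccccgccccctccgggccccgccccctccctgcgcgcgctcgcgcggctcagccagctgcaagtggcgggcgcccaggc
Intergenic site 55978 bases before the start, chr2:29977440-29977739: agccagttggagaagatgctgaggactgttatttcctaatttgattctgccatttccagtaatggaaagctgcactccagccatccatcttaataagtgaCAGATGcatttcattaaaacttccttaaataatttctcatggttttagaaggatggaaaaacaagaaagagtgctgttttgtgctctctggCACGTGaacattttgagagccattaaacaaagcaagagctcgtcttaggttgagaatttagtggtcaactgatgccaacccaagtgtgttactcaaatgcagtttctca
Intergenic site 30541 bases before the start, chr2:29952003-29952302: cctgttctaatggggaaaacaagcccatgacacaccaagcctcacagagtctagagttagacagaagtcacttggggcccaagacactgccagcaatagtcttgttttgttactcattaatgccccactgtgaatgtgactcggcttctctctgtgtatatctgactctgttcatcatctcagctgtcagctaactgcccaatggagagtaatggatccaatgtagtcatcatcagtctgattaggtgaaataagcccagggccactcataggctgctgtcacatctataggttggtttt
Intergenic site 104503 bases before the start, chr2:30025965-30026264: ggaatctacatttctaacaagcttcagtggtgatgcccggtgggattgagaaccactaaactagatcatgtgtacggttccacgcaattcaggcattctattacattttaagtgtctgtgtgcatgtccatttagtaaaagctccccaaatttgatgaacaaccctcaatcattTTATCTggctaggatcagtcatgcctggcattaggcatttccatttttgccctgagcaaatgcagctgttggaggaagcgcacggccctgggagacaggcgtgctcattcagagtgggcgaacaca
Intron 3 site, the strongest of ALK, chr2:29650797-29651096: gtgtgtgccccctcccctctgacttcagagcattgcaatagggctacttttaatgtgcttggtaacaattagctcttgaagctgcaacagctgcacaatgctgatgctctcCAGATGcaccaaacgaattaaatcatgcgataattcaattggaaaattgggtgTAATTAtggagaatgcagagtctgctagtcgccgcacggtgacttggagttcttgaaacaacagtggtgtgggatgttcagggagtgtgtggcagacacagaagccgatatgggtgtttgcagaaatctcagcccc
Intron 11 site inside ALK, named for LOC101929386, chr2:29273737-29274036: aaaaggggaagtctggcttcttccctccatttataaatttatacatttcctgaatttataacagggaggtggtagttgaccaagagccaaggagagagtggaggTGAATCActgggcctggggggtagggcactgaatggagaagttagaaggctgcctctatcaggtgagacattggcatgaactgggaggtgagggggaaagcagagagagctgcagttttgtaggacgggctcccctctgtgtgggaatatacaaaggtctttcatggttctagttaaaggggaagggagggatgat
The promoter was rich in G and C, at 71.6%, and held none of these letters, whereas the intergenic and intronic windows had 39.3% to 48.7% G and C. The letters CAGATG and CACGTG both stood in the window 55978 bases before the start, and 1 AP-1 match stood in the intron 11 window.

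Most chromatin at these genes was weakly open. Levels are given as counts per 1000000 reads in sites (CPM) after TMM scaling and, where sites are compared with each other, as CPM per kilobase of site. In Control the median ALK site had 1.12 CPM per kilobase (range 0.449 to 41.5), the median FAM150A site 1.18 (0.505 to 5.73) and the single LTK site 2.54, beside 1.38 over all 357029 tested sites. The 3 FAM150B sites had 1.47, 2.18 and 6.06 CPM per kilobase. Of the ALK sites 39 of 76 had under 1 CPM in Control (51.3%), as did 19 of 30 FAM150A sites (63.3%) and 48.5% of all tested sites. The strongest ALK site stood at the 99.9th percentile of all tested sites and the ALK exon 1 site at the 98.5th, while the sites nearest to the start of FAM150B, FAM150A and LTK stood at the 94.3rd, 93.9th and 83.4th. ALK thus held a few very open sites among many weak ones.

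The libraries had between 16140029 and 44472230 reads in sites. Replicate 2 of shARID1A/B.2.3 stood apart from the others of its group, with a chi-square per degree of freedom over sites of 2.47 and 2.19 against them, beside 1.09 between the others, and calls that rest on it are given without it too. Control replicate 2 also stood apart, to a smaller degree. It had 1.75 and 1.95 against the other Control libraries, beside 1.09 between those, and it enters every comparison with Control. Of 8 genes of adrenergic neuroblastoma cells, 6 had a tested site within 1000 bases of the start, at 2.57 to 15.9 CPM per kilobase in Control, and ISL1 had none. Of 6 genes listed for other cell types, 2 had such a site, MYOD1 at 3.67 and CDH5 at 3.24 CPM per kilobase. Both lay above TH, the lowest of the adrenergic genes at 2.57, so the lists overlapped in level. The paper that reported these libraries counts CDH5 among the mesenchymal genes repressed upon BAF disruption. ATAC-Seq does not measure the targeted transcripts, so silencing of ARID1A and ARID1B could not be checked in these files.

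The main question was how loss of both ARID1 subunits changed accessibility at the 4 genes. After combined silencing (the mean of both combinations against Control), 5 member sites closed and 2 opened among the 106 that passed the filter on low counts, where closed and opened mean a false discovery rate (FDR) under 0.01 in edgeR's quasi-likelihood test with Benjamini-Hochberg adjustment over all tested sites. Over all tested sites 10.3% closed and 3.43% opened. All 5 closed sites and 1 opened site belonged to ALK, with 73 tested sites, and the other opened site belonged to FAM150A, with 29. Without Control replicate 2, 7 ALK sites closed and 0 opened. The median log2 change was 0.11 over the member sites and 0.03 over all tested sites. Unadjusted p-values were under 0.05 at 27 member sites. The share of all tested sites at that level is not given here, so this count and the like counts below cannot be set against it. In bulk ATAC-Seq, fewer cells with an open site and less opening in each cell cannot be told apart.

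The intergenic site 55978 bases before the ALK start lost most accessibility among the member sites. It had 9.38, 8.05 and 9.18 CPM in the Control libraries, 3.84, 2.79 and 3.91 with shARID1A/B.2.3, and 2.15, 2.72 and 2.32 with shARID1A/B.4.2. All 6 combination libraries lay below all Control libraries. Combined silencing changed it by a log2 of -1.62 (SE 0.11, FDR 5.11e-22). The site 30541 bases before the start had 2.21, 2.3 and 2.45 CPM in Control, 0.886, 0.488 and 0.703 with shARID1A/B.2.3, and 0.762, 1.2 and 0.974 with shARID1A/B.4.2. Its groups did not overlap either, and its log2 change was -1.52 (SE 0.2, FDR 7.23e-10). These were the only 2 of 14 tested sites upstream of ALK that were called; 9.39% of all intergenic sites closed and 1.9% opened.

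**Figure D1:**
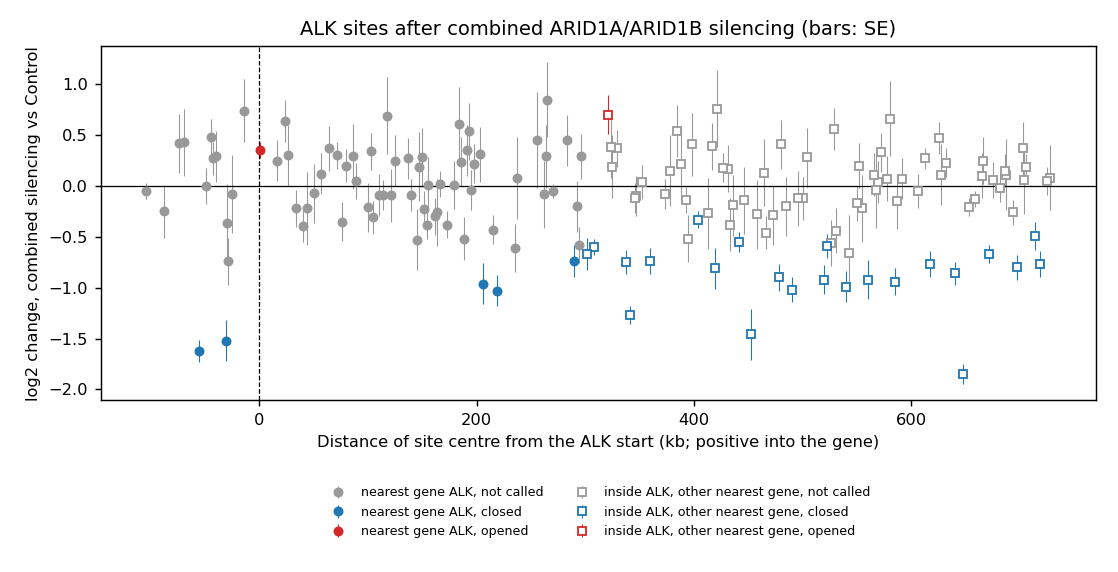
Log2 change after combined silencing (y axis) of the tested sites inside and upstream of ALK against their distance from the ALK start in kilobases (x axis), with standard errors as bars. Blue marks closed, red opened and grey uncalled sites, filled circles are sites named for ALK and open squares sites inside ALK named for another gene. The 2 closed upstream sites lie at -1.62 and -1.52, intron 1 holds no called site, and most closed sites lie in introns 3 to 28 and carry the name of another gene.

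Both closed ALK sites in intron 2 changed less than the closed upstream sites on the log2 scale. The site at chr2:29702417-29703685 had 3.46, 3.08 and 4.13 CPM in Control, 1.77, 1.81 and 2.07 with shARID1A/B.2.3, and 1.25, 2.07 and 1.58 with shARID1A/B.4.2, and it changed by -1.03 on the log2 scale (SE 0.15, FDR 3.04e-08). The site at chr2:29715481-29716533 had 1.64, 1.4 and 2.49 CPM in Control, 0.886, 1.14 and 0.835 with shARID1A/B.2.3, and 0.896, 0.736 and 1.11 with shARID1A/B.4.2. The groups did not overlap at either site. The change at the latter site was -0.96 (SE 0.2, FDR 0.000107), and without Control replicate 3, its highest library, it was -0.67 with an FDR of 0.0433. The fifth closed ALK site, in intron 3 at chr2:29631200-29632852, had 3.06 ± 0.524 CPM in Control (SD, n = 3), 1.54 ± 0.297 with shARID1A/B.2.3 and 2.23 ± 0.483 with shARID1A/B.4.2. Its log2 change was -0.74 (SE 0.16, FDR 9.55e-05), and its Control and shARID1A/B.4.2 libraries overlapped.

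Exon 1 of ALK, which holds the TSS and the promoter shown above, went the other way by a small amount. The site at chr2:29919973-29922027 had 35.4, 27.2 and 32.9 CPM in Control, 41.2, 33.9 and 35.5 with shARID1A/B.2.3, and 44.9, 41.8 and 46.2 with shARID1A/B.4.2. The shARID1A/B.4.2 libraries lay above all Control libraries and the shARID1A/B.2.3 libraries overlapped them. Across both combinations the log2 change was 0.35 (SE 0.08, FDR 0.000547). This call was lost when libraries were scaled on promoter sites (0.11, FDR 0.184), with offsets that follow abundance (0.14, FDR 0.0884) and without Control replicate 2 (0.27, FDR 0.0183). Of all promoter sites, 33.4% opened and 4.24% closed.

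The most open ALK site, in intron 3 at chr2:29650439-29651454, had 45.8, 39.7 and 41.0 CPM in Control, 42.5, 43.2 and 43.0 with shARID1A/B.2.3, and 39.5, 38.7 and 37.5 with shARID1A/B.4.2. These ranges overlapped or nearly met, and the log2 change was -0.05 (SE 0.07, FDR 0.696). Scaling on promoter sites gave -0.28 (FDR 3.56e-05) and offsets that follow abundance also gave -0.28 (FDR 1.6e-05), so that its call depended on the scaling.

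**Figure D2:**
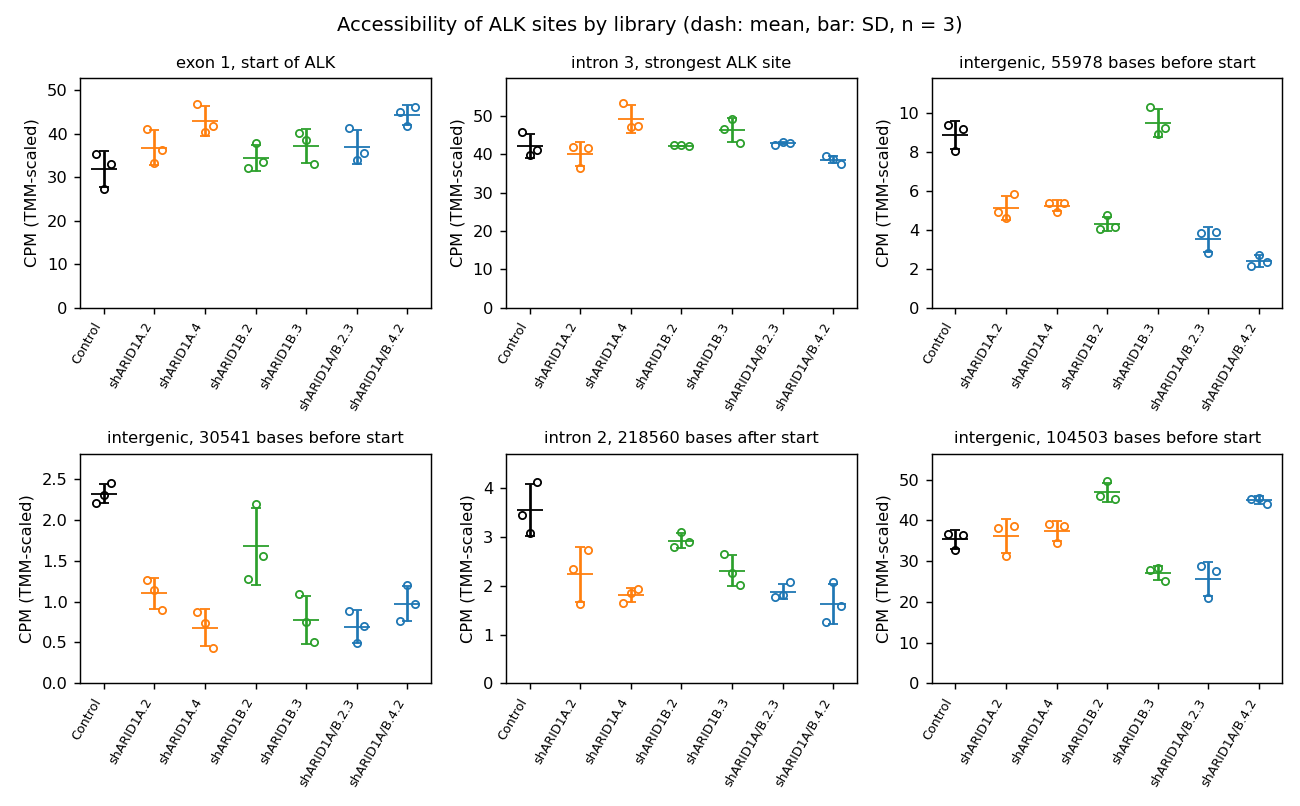
CPM (y axis, linear from 0) of single libraries in the 7 groups (x axis) for 6 ALK sites, with group means as dashes and SDs as bars. The site 55978 bases before the start falls from a Control mean of 8.87 to 3.51 and 2.39 in the combinations and stays at 9.5 with shARID1B.3, while the intron 3 site at the 99.9th percentile stays between 38.6 and 49.3.

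By position, the called losses inside the gene differed in number between introns. Intron 1 had 43 tested sites, of which edgeR called 0 closed and 0 opened, with 6 at an unadjusted p under 0.05; DESeq2's test also called 0 and 0. Scaling on promoter sites called 5 of the 43 closed, with a median change of -0.21, and offsets that follow abundance called 1 opened, so that the absence of calls in intron 1 depended on the scaling. Over all intron sites of the series 12.0% closed and 2.09% opened. Calls also depended on the strength of a site. Of ALK-named sites 2 of 56 tested closed with a mean under 2 CPM and 3 of 17 with at least 2 CPM. Of all intron sites with at least 2 CPM 28.1% closed and 5.89% opened. The part of site strength in the differences between introns was not tested. Of the sites inside ALK under any name, 2 of 3 tested closed in intron 2, 6 of 28 in intron 3, 8 of 31 in intron 4, 3 of 15 in intron 5 and 7 of 23 in introns 6 to 28. The 4 exon sites held 1 called site, that of exon 1, which opened, beside 6.96% closed and 11.1% opened over all exon sites.

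Most of these losses carried the name of another gene. Of the 89 sites inside ALK that are nearest to another start, 84 were named for LOC101929386 and 5 for CLIP4. Of the 88 tested, 23 closed and 1 opened, against 3 closed and 1 opened among the ALK-named sites inside the gene. At 20 of the 23, all 6 combination libraries lay below all Control libraries. These sites were also more open, with 39.3% under 1 CPM in Control. Among sites with a mean of at least 2 CPM, 19 of 37 closed, as did 3 of 17 ALK-named sites and 22.8% of all tested sites of that strength (28.1% of intron sites of that strength). The share that opened was 10.6% over all tested sites of that strength and 5.89% over its intron sites.

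The largest loss inside the gene was in intron 11 at chr2:29273054-29274719, the site with the AP-1 match. It had 17.2, 15.1 and 17.5 CPM in Control, 3.55, 3.28 and 4.13 with shARID1A/B.2.3, and 6.41, 5.38 and 5.94 with shARID1A/B.4.2. All 6 combination libraries lay far below Control, with a log2 change of -1.85 (SE 0.1, FDR 5.44e-30). An intron 3 site at chr2:29579650-29581079 had 19.9 ± 2.38 CPM in Control beside 7.03 ± 1.46 and 9.75 ± 0.646 in the combinations (SD, n = 3), a log2 change of -1.27 (SE 0.09, FDR 7.46e-21). Both were picked after their values were seen.

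Each subunit was then silenced alone to ask which losses needed both. After ARID1A silencing 4 member sites closed and 1 opened (5.37% and 1.67% of all tested sites), all of them at ALK. After ARID1B silencing 2 closed and 2 opened (3.53% and 1.39%), again at ALK. Both upstream sites closed in each of these comparisons, but only 1 of the 2 ARID1B shRNAs closed each of them. The site 55978 bases before the start changed by -1.05 with shARID1B.2 (FDR 6.21e-09) and by 0.1 with shARID1B.3 (FDR 0.666). The site 30541 bases before the start changed by -0.49 (FDR 0.204) and -1.52 (FDR 6.98e-08), in the same order. At the site 55978 bases before the start the log2 change with ARID1A silenced was -0.78 (SE 0.11, FDR 2.42e-08) and with ARID1B silenced -0.47 (SE 0.11, FDR 0.00086), and the combinations were lower than the mean of the 4 single-silencing groups by a log2 of -1.0 (SE 0.09, FDR 3.37e-15). At the site 30541 bases before the start the changes were -1.39 (FDR 7.41e-08) and -1.01 (FDR 3.43e-05), and the difference between combined and single silencing was -0.32 (SE 0.17, FDR 0.241), which did not pass the test. ARID1B silencing opened 2 weak ALK sites, one in intron 1 at chr2:29886676-29888475 (0.66, SE 0.17, FDR 0.00397) and one in intron 3 at chr2:29665600-29666005 (1.6, SE 0.41, FDR 0.00444). Control had 2.02 and 0.182 CPM there.

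Combined silencing lowered 3 member sites below the mean of the 4 single-silencing groups and raised 0 in edgeR's test. Unadjusted p-values were under 0.05 at 17 member sites, and over all tested sites 6.85% were lower and 0.969% higher. Besides the upstream site, those lowered were both in intron 1, where the combination means lay near those of the ARID1A shRNAs. At chr2:29747805-29750299 the ARID1A shRNAs gave 3.67 and 3.23 CPM, and at chr2:29886676-29888475 1.64 and 1.84 CPM. The ARID1B shRNAs lay above Control at both, so the differences do not show a loss beyond that of ARID1A silencing alone. The site at chr2:29747805-29750299 had 4.29 ± 0.204 CPM in Control, 3.07 ± 0.249 and 3.51 ± 0.364 in the combinations, and 3.23 to 5.34 as means of the single groups (difference -0.35, SE 0.09, FDR 0.00322). The site at chr2:29886676-29888475, which ARID1B silencing opened, had 1.48 ± 0.102 and 2.0 ± 0.201 CPM in the combinations beside 3.1 ± 0.255 with shARID1B.2 and 3.16 ± 0.47 with shARID1B.3 (difference -0.45, SE 0.12, FDR 0.00757). At both sites the response to ARID1A silencing was below that to ARID1B silencing, by -0.56 (SE 0.1, FDR 2.71e-05) and -0.85 (SE 0.14, FDR 1.77e-06), the only 2 member sites that differed in this comparison (3.69% lower and 1.05% higher over all tested sites). Of the 23 closed sites inside ALK with another name, 14 also closed when ARID1A and 5 when ARID1B was silenced, and 17 were lower with combined than with single silencing. The 23 were chosen on the same combination and Control libraries, so these counts are descriptions. Of all 88 tested sites of this set, 14 closed with ARID1A and 5 with ARID1B silenced (5.37% and 3.53% of all tested sites). With combined silencing 18 of the 88 were lower than with single silencing (6.85% of all tested sites). The counts for ARID1A and ARID1B silencing rested on single Control libraries. Over the 88 tested sites of this set the closed count with ARID1A silenced was 8 without Control replicate 1 and 7 without Control replicate 3, and with ARID1B silenced 2 and 1. DESeq2 gave 9 and 2.

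Each combination was also compared with Control on its own. With shARID1A/B.2.3, 7 member sites closed and 3 opened (10.4% and 2.85% of all tested sites; 5 and 3 without its replicate 2), and with shARID1A/B.4.2, 5 closed and 2 opened (7.37% and 3.97%). Same-numbered libraries of Control and shARID1A/B.2.3 deviated together. With the replicate number as a block and only these groups in the fit, 10 member sites closed and 6 opened. The share of all tested sites called in that fit is not given here, so these counts cannot be set against it. Of the 5 ALK sites that closed after combined silencing, 5 closed with shARID1A/B.2.3 and 4 with shARID1A/B.4.2. These 5 sites were chosen on the mean of the same combinations against the same Control, so the counts are not a separate test.

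shARID1B.3 was lower than shARID1B.2 at 3 ALK sites (4.11%) and higher at 2 (2.74%), beside 4.25% and 2.96% of all tested sites. The shRNAs thus differed no more often at ALK than over all tested sites. Of its 73 tested sites, shARID1A.2 closed 4 and opened 0 (4.54% and 0.834% of all tested sites, and 13 at an unadjusted p under 0.05 in edgeR's test), shARID1A.4 closed 3 and opened 1 (4.17% and 2.28%), shARID1B.2 closed 1 and opened 1 (1.84% and 1.34%), and shARID1B.3 closed 4 and opened 3 (4.88% and 3.12%). The strong site 104503 bases before the start, the farthest upstream, had 36.7, 32.7 and 36.4 CPM in Control. It had 28.8, 21 and 27.5 CPM with shARID1A/B.2.3 and 45.3, 45.6 and 43.9 with shARID1A/B.4.2, so that the combinations lay on opposite sides of Control without overlap. The log2 changes were -0.46 (SE 0.09, FDR 4.29e-05) and 0.35 (SE 0.09, FDR 0.00238), and the difference between the combinations was -0.81 (SE 0.09, FDR 2.59e-11). Without replicate 2 of shARID1A/B.2.3, its lowest library, the first change was -0.3 and did not pass (FDR 0.0146), and the difference was -0.69 (FDR 6.65e-09). It was 1 of 2 member sites that differed between the combinations, 1 lower and 1 higher (3.79% and 1.43% of all tested sites). The single ARID1B shRNAs diverged in the same direction, with 27.7, 28.2 and 25.1 CPM for shARID1B.3 and 45.9, 49.7 and 45.3 for shARID1B.2 (difference -0.79, SE 0.09, FDR 3.33e-11). By their names, shARID1A/B.2.3 carries hairpin 3 against ARID1B and shARID1A/B.4.2 carries hairpin 2. The ARID1A shRNAs gave 36.1 ± 4.16 and 37.4 ± 2.51 CPM. The rise with shARID1A/B.4.2 was 0.03 (FDR 0.814) under promoter scaling and 0.05 (FDR 0.725) with offsets that follow abundance. The difference between the combinations stayed between -0.61 and -0.83 over the settings of scaling, test, filter and block. Leaving out 1 library gave -0.92 to -0.69.

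**Figure D3:**
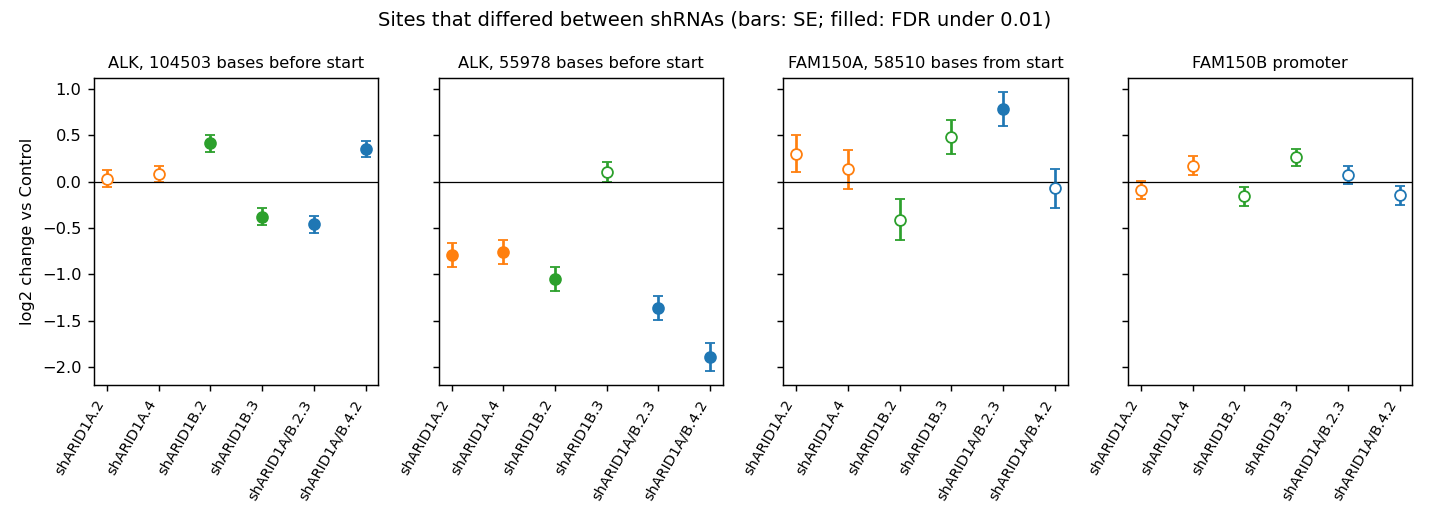
Log2 change against Control (y axis, SE as bars) of 4 member sites for each shRNA or combination (x axis), filled where the FDR was under 0.01. At the site 104503 bases before the ALK start shARID1B.3 and shARID1A/B.2.3 lie at -0.38 and -0.46 and shARID1B.2 and shARID1A/B.4.2 at 0.41 and 0.35.

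At the site 55978 bases before the start the ARID1B shRNAs also diverged. With shARID1B.2 it had 4.03, 4.74 and 4.14 CPM, and with shARID1B.3 10.3, 8.95 and 9.24 CPM, within and above the Control range. The difference between them was 1.15 (SE 0.13, FDR 1.86e-11), and the change with shARID1B.3 alone was 0.1 (SE 0.11, FDR 0.666). The combination libraries did not overlap each other there either, and their difference, 0.52 (SE 0.16, FDR 0.0228), had the same sign but did not pass the test. At the site 30541 bases before the start the order was the reverse, with 1.68 ± 0.472 CPM for shARID1B.2 and 0.779 ± 0.294 for shARID1B.3 (difference -1.04, SE 0.24, FDR 0.0012), and the combinations differed by -0.54 (SE 0.28, FDR 0.247). Over all member sites, shARID1B.3 and shARID1B.2 differed at 7 of 106, 3 lower and 4 higher (4.25% and 2.96% of all tested sites). shARID1A.2 and shARID1A.4 differed at 0 member sites in edgeR's test, with 13 at an unadjusted p under 0.05 (1.84% lower and 0.737% higher over all tested sites).

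LTK, the receptor related to ALK, held 1 site, at exon 2 and 816 bases after the start (chr15:41511712-41514431). It had 7.6, 4.97 and 8.14 CPM in Control, 7.06, 5.39 and 7.47 with shARID1A/B.2.3, and 6.63, 5.8 and 8.35 with shARID1A/B.4.2. The 3 groups overlapped throughout, and combined silencing changed the site by a log2 of -0.03 (SE 0.12, FDR 0.896). The means of the 4 single-silencing groups lay between 6.78 and 7.37 CPM, and no comparison passed the test at this site.

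The ligand gene FAM150A had its sites spread over intergenic chromatin, with 21 of 30 there and 5 in intron 1. The site at its start, chr8:52564075-52566097, had 12.0, 11.2 and 11.6 CPM in Control, 12.0, 11.9 and 12.8 with shARID1A/B.2.3, and 13.5, 13.3 and 12.1 with shARID1A/B.4.2. Combined silencing changed it by 0.12 (SE 0.09, FDR 0.413) and -0.12 under promoter scaling. Of the 29 tested FAM150A sites, 24 had a change above 0 with a median of 0.27. Under promoter scaling, which moved the median of all tested sites from 0.03 to -0.2, 16 were above 0 and the median was 0.04.

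A single FAM150A site opened after combined silencing, 69224 bases after the start at chr8:52495705-52496770. It had 3.75, 4.27 and 4.81 CPM in Control, 5.32, 6.81 and 5.67 with shARID1A/B.2.3, and 4.88, 5.94 and 5.19 with shARID1A/B.4.2. All combination libraries lay above Control, the nearest by 4.88 against 4.81. The log2 change was 0.39 (SE 0.12, FDR 0.00934), close to the threshold, and the call was lost under promoter scaling (0.16, FDR 0.397), with DESeq2 (0.4, FDR 0.0187) and in the fit of the compared groups alone (0.4, FDR 0.0228). Leaving out 1 library at a time gave 0.31 to 0.49, with FDRs from 0.00225 to 0.109 and the highest without Control replicate 1. With shARID1A/B.2.3 it opened (0.48, FDR 0.0039) together with its neighbours at chr8:52500965-52503598 (0.6, SE 0.16, FDR 0.00341) and chr8:52506523-52507380 (0.78, SE 0.18, FDR 0.000417). Without replicate 2 of shARID1A/B.2.3 these changes were 0.37 (FDR 0.058), 0.65 (FDR 0.00381) and 0.75 (FDR 0.00269), in the order named, and the first 2 calls were also lost without Control replicate 1 and Control replicate 3 (0.5, FDR 0.0516), respectively. The last of these sites had 1.6 ± 0.241 CPM in Control, 2.7 ± 0.137 with shARID1A/B.2.3 and 1.51 ± 0.0215 with shARID1A/B.4.2, and the combinations differed by 0.85 (SE 0.18, FDR 0.000437). In the single-shRNA comparisons 1 FAM150A site was called: shARID1B.3 closed a weak site at the gene's end, from 0.954 ± 0.346 to 0.379 ± 0.277 CPM (-1.19, SE 0.32, FDR 0.00547), picked after its value was seen.

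The ligand gene FAM150B had 3 sites, all at the gene itself. The promoter site at chr2:287076-290392 had 19.4, 18.5 and 22.4 CPM in Control, 22.4, 19.7 and 21.1 with shARID1A/B.2.3, and 18.6, 17.3 and 18.5 with shARID1A/B.4.2. The groups overlapped and combined silencing changed the promoter by -0.04 (SE 0.08, FDR 0.801), or -0.28 (FDR 0.00111) under promoter scaling. The site in intron 4, chr2:280176-282948, had 4.08 ± 0.79 CPM in Control and 3.73 ± 0.736 and 3.63 ± 0.155 in the combinations (-0.16, SE 0.13, FDR 0.455). The weak site at the gene's end had 0.502 ± 0.151 CPM in Control and a change of 0.22 (SE 0.31, FDR 0.693). The promoter differed between the ARID1B shRNAs, with 25.2, 24.0 and 22.9 CPM for shARID1B.3 and 15.7, 18.8 and 19.6 for shARID1B.2, without overlap (difference 0.42, SE 0.1, FDR 0.000892), a call lost without shARID1B.2 replicate 1 (0.32, FDR 0.0412).

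**Figure D4:**
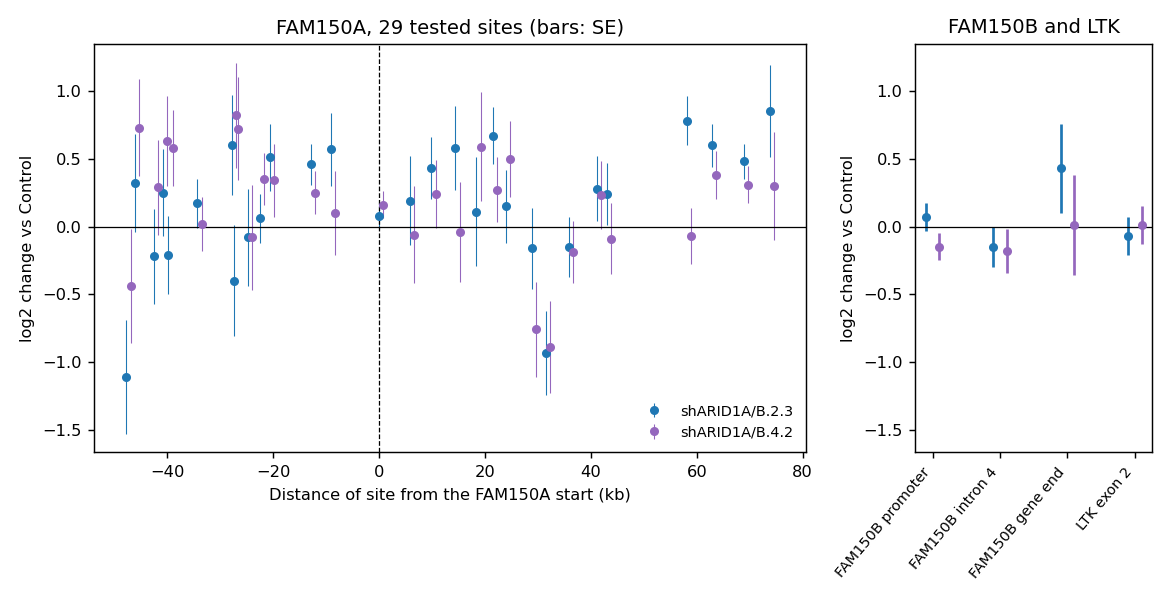
Log2 change against Control (y axis, SE as bars) with shARID1A/B.2.3 (blue) and shARID1A/B.4.2 (purple) for the 29 tested FAM150A sites against distance from the start in kilobases, the colours drawn slightly apart, and for the FAM150B and LTK sites. With shARID1A/B.2.3 21 FAM150A sites lie above 0 and with shARID1A/B.4.2 20, and the LTK site lies at -0.07 and 0.01.

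Summed over all sites of each gene and tested among 26743 genes, accessibility passed an FDR under 0.01 after combined silencing for 0 of the 4 genes (20.9% of genes fell and 15.9% rose) in edgeR's test, with 1 gene, FAM150A, at an unadjusted p under 0.05, and for 0 of 4 in DESeq2's test. These calls depended on the scaling, since ALK (-0.26, FDR 6.77e-05) and FAM150B (-0.29, FDR 0.000803) passed when scaled on promoter sites and FAM150A (0.23, FDR 0.000745) with total counts only. ALK had 227, 203 and 223 CPM in Control and 198 to 209 CPM in the 6 combination libraries, a log2 change of -0.09 (SE 0.04, FDR 0.105). The sum over the 151 sites inside ALK under any name changed by a log2 of -0.35 (SE 0.04, FDR 2.57e-07). For FAM150A the change was 0.16 (SE 0.07, FDR 0.0425), for FAM150B -0.11 (SE 0.06, FDR 0.151) and for LTK -0.09 (SE 0.14, FDR 0.606). FAM150A had 42.1, 47.5 and 42.8 CPM in Control, 49.8, 59.6 and 49.1 with shARID1A/B.2.3, and 46.5, 47.5 and 44.4 with shARID1A/B.4.2. It rose with shARID1A/B.2.3 (0.26, SE 0.07, FDR 0.00633; 11.9% of genes rose and 18.8% fell). The call was lost without replicate 2, the highest library (0.18, FDR 0.0431), without Control replicate 1 (0.23, FDR 0.0409) or 3 (0.24, FDR 0.0284), and under promoter scaling (0.11, FDR 0.31). The FAM150B sum fell with shARID1A/B.4.2 (-0.28, SE 0.08, FDR 0.00451, beside 19.5% of genes that fell and 15.9% that rose). Its 3 sites changed by -0.18 to 0.01 with this combination, and 0 were called. Sums were scaled separately from sites, and the 1 LTK site changed by 0.01 as a site and by -0.12 as a sum with this combination. The part of this scaling in the FAM150B call was not tested. FAM150B had 23.6, 24.9 and 28.4 CPM in Control, 21.2, 20.8 and 21.5 with shARID1A/B.4.2, and 27.4, 26.7 and 25.5 with shARID1A/B.2.3. This call was lost without Control replicate 3 (-0.19, FDR 0.0462), without Control replicate 2 or any 1 of the shARID1A/B.4.2 libraries (-0.28 to -0.26, FDR 0.0102 to 0.0207), and with total counts only (-0.19, FDR 0.0702). The combinations differed at FAM150B by 0.33 (SE 0.07, FDR 0.00272; 6.07% of genes were higher and 7.64% lower), and shARID1B.3 differed from shARID1B.2 by 0.32 (SE 0.07, FDR 0.00337; 3.96% higher and 7.33% lower). Each of these differences was lost without 1 of several libraries. FDRs rose to 0.0143 without shARID1A/B.4.2 replicate 2 for the first and to 0.0238 without shARID1B.2 replicate 1 for the second. The first also did not pass with total counts only (0.28, FDR 0.0159), and the second did not pass under promoter scaling (0.27, FDR 0.0115).

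Other genes of the pathway were described from a list of 32, of which 31 had 573 tested sites. After combined silencing 76 of these sites closed (13.3%) and 21 opened (3.66%), beside 10.3% and 3.43% over all tested sites, and the median change was -0.04 beside 0.03. The genes of ALK output and feedback, ETV and SPRY factors and DUSP6, held 40 closed and 4 opened of 220 sites. The PI3K genes held 14 closed and 2 opened of 48, of which 13 closed sites were at PIK3R1, a regulatory subunit. The RAS-MAPK genes held 7 closed and 9 opened of 81, the adaptors and phosphatase 6 and 4 of 85, and the JAK-STAT genes 2 called sites of 32, both opened. PTN, MDK and PTPRZ1, proposed further ligands and their receptor, held 9 called sites of 107, all closed.

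The largest closures in that list were distal. A site 523510 bases after the start of ETV1, an ETS factor that ALK signalling induces, had 15.1 ± 1.75 CPM in Control and 3.36 ± 0.916 and 4.2 ± 0.437 CPM in the combinations (-1.98, SE 0.11, FDR 1.31e-28). Sites of SPRY4 and DUSP6, feedback inhibitors of MAPK signalling, changed by -1.94 (FDR 1.32e-27) and -1.63 (FDR 5.63e-18), and an intron 1 site of PTN by -1.65 (FDR 3.77e-21). Among the sites that opened, that of IRS1, an adaptor of receptor kinases (0.53, FDR 1.93e-08), was strong, with 45.1 ± 2.1 CPM in Control, and those of ETV5 (0.75, FDR 6.86e-08) and MAP2K2 (0.79, FDR 7.1e-08) were weaker, with 4.2 ± 0.0772 and 5.69 ± 1.25 CPM.

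The letters of 6 motifs were searched in the middle 300 bases of the member sites that are at least 300 bases long, on both strands, as a description. Of 94 such member sites 25.5% held a GATA match, 25.5% an E-box, 19.1% a TEAD match, 13.8% a homeobox match, 11.7% an AP-1 match and 2.13% a MYC E-box. Over 308318 tested sites of the same window these shares were 27.5%, 22.7%, 16.7%, 8.19%, 10.6% and 4.09%. Of the 5 closed ALK sites, 2 held CAGATG or its complement, 2 held CACGTG, and none held an AP-1 match. Among the 23 closed sites inside ALK under another name, 10 held a GATA match (43.5%) and 6 an AP-1 match (26.1%). The shares were 37.7% and 14.2% over all tested sites that closed, and 17.6% and 19.6% over the 51 uncalled sites of the same stretch. Over 34943 RefSeq promoters AP-1, GATA, E-box, MYC E-box, TEAD and homeobox letters stood in 6.59%, 14.6%, 12.2%, 6.32%, 11.9% and 4.35%, and the ALK promoter held none.

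Summed ALK accessibility over the 21 libraries was most like that of LOC100506937 (Pearson's r = 0.917), FLJ46836 (0.91), LOC102724965 (0.906), LOC283070 (0.902) and FLJ45079 (0.901) among 14848 genes with at least 5 sites. For LTK the most alike were FNBP1 (0.765) and ALDH4A1 (0.756), for FAM150A RP4-753D10.5 (0.968) and LOC101927293 (0.964), and for FAM150B UBE3C (0.838) and LOC102724511 (0.834). Between members r was 0.3 for ALK and LTK, -0.441 for ALK and FAM150A and -0.075 for ALK and FAM150B. LTK, with 1 site, and FAM150B, with 3, fall below the limit of 5 sites. The genes named above were the highest of 14848, so that lower values for genes set beforehand follow from that choice. These values share libraries, scaling and the 7 groups, and they are descriptions.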

How the data were processed

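SK-N-BE(2) ATAC-Seq libraries of 7 groups of 3 were analysed from tables deposited by the authors, in GRCh38 per the labels. The deposited counts are raw reads per site and library over a consensus peak set that, by its name, was made on merged replicates, and the authors annotated it with HOMER by nearest TSS. Aligner, peak caller: not given in the sources used here. Besides counts, these tables hold 36 per-sample columns of normalised counts and the authors' DESeq2 comparisons (fold changes and p-values), which were not used.

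Sites failing edgeR's filterByExpr (10871) were removed, and 357029 were fitted with all 21 libraries in 1 model (edgeR 4.0.16 in R 4.3.3, TMM scaling, quasi-likelihood test, Benjamini-Hochberg over all tested sites, FDR under 0.01). Changes are log2 of silenced over Control. CPM is a count per 1000000 TMM-scaled reads. The biological coefficient of variation was 0.0817. Gene sums were fitted likewise over 26743 genes. The code was tested on simulated data. Named in full were, for each gene, the site nearest to the start, the strongest site, called sites whose libraries did not overlap Control, and for a gene without a called site the one with the smallest p. The 4 genes, the pathway list, the markers and the motifs were chosen with earlier results of these data known. Values of some listed genes are not reported here. Alternatives were another scaling, DESeq2 1.42.0, no filter, other thresholds, other site sets, only the compared groups, a replicate block and leaving out each library.

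Libraries carry numbers 1 to 3 in every group. Deviations of same-numbered libraries from their group means correlated at over 0.1 in every pair for 1 of 21 pairs of groups, Control and shARID1A/B.2.3 (0.177 to 0.479), which was taken as paired by the data and not by a stated design.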

Additional observations from a re-analysis of the deposited data

Results flagged for a closer look

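The following values were flagged because the effect of shRNAs aimed at the same gene, or of the 2 targeted genes, differed in edgeR's test of the difference itself. Of member sites 2 of 106 differed between the combinations, 7 between the ARID1B shRNAs and 2 between ARID1A and ARID1B silencing, while over all tested sites 3.79% were lower and 1.43% higher in the first of these differences, 4.25% and 2.96% in the second, and 3.69% and 1.05% in the third.

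Between the combinations (shARID1A/B.2.3 minus shARID1A/B.4.2), the ALK site 104503 bases before the start differed by a log2 of -0.81, the FAM150A site 58510 bases after the start by 0.85 (2.7 against 1.51 CPM, 1.6 in Control), and the summed FAM150B sites by 0.33 (26.5 against 21.2 CPM, 25.6 in Control).

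Between the ARID1B shRNAs (shARID1B.3 minus shARID1B.2), the FAM150B promoter differed by 0.42, the summed FAM150B sites by 0.32, and the FAM150A site 58510 bases after the start by 0.89. At ALK the sites 104503, 55978 and 30541 bases before the start differed by -0.79, 1.15 and -1.04, and in intron 1 the sites 76169 and 23318 bases after the start differed by -0.71 (1.29 against 2.16 CPM, FDR 0.0077) and 0.9 (1.87 against 1.0 CPM, FDR 0.00272). At 3 of these items, the ALK site 104503 bases before the start, the FAM150A site and the FAM150B sum, the combinations also differed at an FDR under 0.01, in the direction of the ARID1B shRNA that they carry by name. Of these 3, the FAM150B sum did not pass between the combinations with total counts only (0.28, FDR 0.0159). At the other items the difference between the combinations did not pass. It was 0.52 (FDR 0.0228) and -0.54 (FDR 0.247) at the ALK sites 55978 and 30541 bases before the start, 0.21 (FDR 0.163) at the FAM150B promoter, and -0.31 (FDR 0.451) and -0.15 (FDR 0.738) at the 2 intron 1 sites. Of these differences between ARID1B shRNAs, those at the ALK sites 104503 and 55978 bases before the start passed without any 1 library, and the others were lost without 1 or more, with FDRs up to 0.0546. The parts of the shRNA sequence and of the degree of silencing in these differences were not tested.

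Between ARID1A and ARID1B silencing (ARID1A minus ARID1B), the ALK intron 1 sites 172559 and 34036 bases after the start differed by -0.56 and -0.85. At the latter, Control had 2.02 CPM, the ARID1A shRNAs 1.64 and 1.84 CPM, and the ARID1B shRNAs 3.1 and 3.16 CPM.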

How the results depend on the processing

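Counts of called member sites (closed plus opened; 7 after combined silencing, 10 with shARID1A/B.2.3, 7 with shARID1A/B.4.2, 5 after ARID1A and 4 after ARID1B silencing, 3 for combined against single) moved with the site set, the scaling and the thresholds. With all sites inside the 4 genes they were 28, 28, 23, 17, 7 and 20. With libraries scaled on promoter sites they were 18 after combined silencing, 13 with shARID1A/B.4.2, 8 after ARID1A silencing and 7 for combined against single, nearly all closed, and 15.9% of all tested sites closed. Offsets that follow abundance gave 13 after combined and 3 after ARID1A silencing. With these offsets 9.68% of all tested sites closed and 4.26% opened after combined silencing. An FDR under 0.05 gave 16 after combined silencing, 17 with shARID1A/B.2.3, 7 after ARID1B silencing and 8 for combined against single. A log2 change of at least 1 left 3, 3, 4, 1, 2 and 0. The shares of all tested sites at these other thresholds are not given here, so these counts cannot be set against them. Sites within 100000 bases of the start gave 4, 6 and 3 for combined silencing and the 2 combinations and 3 after ARID1A silencing. After ARID1B silencing DESeq2 gave 2, as did sites with a mean of at least 2 CPM, a setting chosen after seeing the data.

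Leaving out 1 library gave 6 to 9 after combined silencing, 7 to 10 and 5 to 7 with the combinations, 3 to 5 after ARID1A silencing (3 without shARID1A.2 replicate 1), 2 to 5 after ARID1B silencing (2 without any 1 Control library, shARID1B.2 replicate 2 or shARID1B.3 replicate 1), and 1 to 4 for combined against single (1 without shARID1B.3, shARID1A/B.2.3 or shARID1A/B.4.2 replicate 1). With the replicate block in the fit of all libraries the counts were 10, 11, 7, 5, 5 and 3. With the block and only the compared groups, chosen after seeing the data, shARID1A/B.2.3 gave 16. The share over all tested sites in that fit is not given here.

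The gene sum of ALK (-0.09) was -0.26 under promoter scaling (past the threshold), 0.05 with offsets that follow abundance, 0.01 within 100000 bases of the start and -0.35 over sites inside the gene (past it). That of FAM150A (0.16) was 0.23 with total counts only (past it) and -0.01 under promoter scaling, and that of FAM150B (-0.11) was -0.29 under promoter scaling (past it). Leaving out 1 library gave -0.11 to -0.05 for ALK, 0.13 to 0.24 for FAM150A, -0.17 to -0.03 for FAM150B and -0.23 to 0.04 for LTK, the last above 0 without Control replicate 3. Among sites near 0, leaving out 1 library gave -0.07 to 0.01 for the strongest ALK site (above 0 without Control replicate 1), -0.2 to 0.11 for the LTK site (0.03, 0.11, 0.07, 0.01 and 0.05 above 0) and -0.07 to 0.05 for the FAM150B promoter (0.05, 0.01 and 0.00). The LTK site was 0.09 with offsets that follow abundance. The FAM150A start site was -0.12 under promoter scaling. The causes of these moves were not tested. The closures 55978 and 30541 bases before the ALK start and at chr2:29702417-29703685 kept their calls in all settings in which they were computed. Since 48.5% of sites had under 1 CPM, small changes at weak sites were not detectable at this depth.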
